A study of Mus musculus with 8 samples.

Results

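The genes described here load and activate the DNA helicase of replication origins. They are Mcm2, Mcm3, Mcm4, Mcm5, Mcm6, Mcm7, Mcm10, Cdc6, Cdt1 and Cdc45, chosen by symbol in GENCODE vM21 through the Ensembl identifiers of the authors' gene count table, and they make up 10 of its 16119 genes. RNA was from common dendritic cell progenitors (CDPs) that were sorted from the bone marrow (BM) of mice as negative for lineage markers, intermediate for c-kit, low for Sca1 and positive for CD115 and Flt3. The mice were wild-type males, of strain C57BL/6 in the labels and C57BL/6J in the methods. The age is uncertain, since 16 weeks is the time on diet in the labels and the age at purchase in the methods. Those on a high-fat diet (HFD, 60 kcal% fat, labelled DIO for diet-induced obese) had been fed it for 16 weeks by the labels, and those on control chow (CF, 10 kcal% fat, labelled DIO-Control) were matched in age. Each diet had 4 libraries of about 50000 sorted cells. The methods call them independent replicates and do not state whether a library held cells of 1 mouse or of several, so the p-values measure the spread between these libraries.

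Before a cell enters S phase, each origin is licensed. The origin recognition complex binds DNA, and with Cdc6 and Cdt1 it loads the ring of Mcm2 to Mcm7, the core of the replicative helicase, in an inactive double form. At S phase entry Cdc45 and the GINS complex join the ring and, with Mcm10, turn it into a working helicase, while geminin (Gmnn) and the destruction of Cdt1 prevent a second round of loading. Most of these genes are textbook targets of E2F factors, which drive transcription ahead of S phase. The study asked whether obesity alters the proliferation of CDPs, and the comparison of HFD with CF asks here whether the mRNA of the licensing machinery differed between the diets.

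The promoters are shown because they are a feature that the choice of genes did not use. RefSeq sequences on GRCm38.p6 (250 bases before to 50 bases after a transcription start) were given for 9 of the 10 genes, Mcm4 being the exception. The letters TTTCCCGC, TTTCGCGC, TTTGCCGC or TTTGGCGC, forms of the E2F element searched on both strands, stood in the promoters of 6 of these 9 genes (66.7%). Among the 9778 tested genes with a promoter, 4.77% held them, and among all 32851 promoters of the same length 2.26%, while among 73 other genes of replication, E2F and mitosis lists with a promoter it was 21 (28.8%). In the following 80-base windows, written 5′ to 3′ on the strand of the gene, capitals mark the E2F letters or their reverse complement, and Mcm7 has a window for each of its matches, both in the second of its promoter entries.
Mcm3, chr1:20820263-20820342, minus strand: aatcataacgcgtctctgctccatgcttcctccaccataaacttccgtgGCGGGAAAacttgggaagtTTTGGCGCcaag
Mcm5, chr8:75109322-75109401, plus strand: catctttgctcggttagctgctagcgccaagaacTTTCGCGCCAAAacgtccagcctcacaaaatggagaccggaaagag
Mcm6, chr1:128359741-128359820, minus strand: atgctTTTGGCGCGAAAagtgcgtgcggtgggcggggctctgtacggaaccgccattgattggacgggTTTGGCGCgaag
Mcm7, chr5:138172005-138172084, minus strand: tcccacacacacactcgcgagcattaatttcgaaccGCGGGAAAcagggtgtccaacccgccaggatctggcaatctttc
Mcm7, chr5:138171834-138171913, minus strand: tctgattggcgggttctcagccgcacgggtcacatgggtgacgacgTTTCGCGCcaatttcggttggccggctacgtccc
Cdc6, chr11:98907977-98908056, plus strand: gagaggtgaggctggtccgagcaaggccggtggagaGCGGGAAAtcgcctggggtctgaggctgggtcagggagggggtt
Cdt1, chr8:122567985-122568064, plus strand: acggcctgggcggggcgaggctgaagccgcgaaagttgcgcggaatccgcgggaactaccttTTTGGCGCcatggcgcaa
Mcm5 held TTTCGCGCCAAA, in which a TTTCGCGC on the strand shown and a TTTGGCGC on the other overlap. Mcm6 held the same 12 letters reversed and complemented, TTTGGCGCGAAA, and a further TTTGGCGC closer to the start. The matches of Mcm3 and Cdt1 and the second of Mcm7 lay within the 50 bases after the start, whereas that of Cdc6 lay 138 bases before it. The start is that of the RefSeq entry, which is not always the end of the GENCODE gene coordinates given below. The windows of Cdc6 and Mcm7 lie wholly inside those GENCODE coordinates. No complete E2F letters were in the promoter sequences of Mcm2, Mcm10 and Cdc45, which says only that these letters are not there. That of Mcm10 ended, at its edge after the start, in TTTGGCG, which is TTTGGCGC without its last letter. The base beyond that edge was not looked at. CCAAT, the letters read by NF-Y, was found on either strand in 7 of 9 genes (77.8%, against 43% of tested genes with a promoter and 53.4% of those 73). TTTGAA, the letters of the cell cycle homology region, was found in 2 of 9 (22.2%, against 14.8% and 24.7%), namely Mcm2 and Cdc45. In Mcm7 a CCAAT began at the last letter of a TTTCGCGC. The window of Cdc45 is shown for contrast, with capitals on its CCAAT letters, which lie on the opposite strand and so read ATTGG.
Cdc45, chr16:18811938-18812017, minus strand: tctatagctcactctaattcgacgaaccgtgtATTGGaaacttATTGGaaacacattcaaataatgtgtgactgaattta
These matches are a description of the letters and no sign of binding, which was not measured.

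The licensing and helicase genes were measured in every library. The libraries held 28203651 to 48409689 counts, of which the 10 genes took between 626 (Cdt1) and 9935 (Mcm6) per gene and library. All 10 genes passed the filter on low counts. Values are counts scaled to the library total by TMM (CPM), a scaling that takes most genes to be unchanged between libraries. In the edgeR quasi-likelihood fit over 15837 genes, 67 genes (0.423%) had an adjusted p below 0.05, and all 67 were lower in HFD. The count and its direction depended on the processing. It was 0 with protein-coding genes alone, 200 without HFD replicate 1 (34 of them higher) and 569 in DESeq2 (71 higher). None of the 10 genes was among the 67, and none was called in DESeq2 or limma voom. An unadjusted p below 0.05 with a higher level in HFD was found for 1 of the 10, Cdc45, and for 3.22% of all genes tested.

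The sort markers were present in every library, and HFD replicate 1 stood apart from the others. Flt3 was at 88.8 CPM in HFD replicate 1 and at 227 to 378 CPM in the other 7, while Csf1r, which encodes CD115, was at 79.4 to 133 CPM and Kit at 34.2 to 53.6 CPM throughout. The 10 genes of a neutrophil list, all of them measured, summed to 19460 CPM in HFD replicate 1, to 3420 and 1234 CPM in HFD replicates 2 and 3, and to 923 CPM in HFD replicate 4. In CF they summed to 1884, 6350, 5896 and 5774 CPM in replicates 1 to 4. None of the 10 was at 0 in any library, and S100a8, an abundant calprotectin mRNA of neutrophils, ran from 245 CPM in HFD replicate 4 to 5154 CPM in HFD replicate 1. The erythroid list, 7 of 7 genes measured, was likewise highest in HFD replicate 1, at 389.8 CPM against 79.9 to 122 CPM in the other HFD libraries and 74.7 to 117 CPM in CF. The granulocyte progenitor list, 5 of 5 genes measured, was highest there too. It summed to 1158, 398, 251.5 and 214 CPM in HFD replicates 1 to 4 and to 325 to 715 CPM in CF. In RNA of a whole sample, fewer cells of a type and less RNA per cell cannot be told apart. The plasmacytoid DC list (4 of 4 genes measured, none at 0) summed to 146, 269, 199.8 and 276 CPM in HFD replicates 1 to 4 and to 143 to 186 CPM in CF, highest in HFD replicate 4, and 3 of its 4 genes were higher in HFD at an unadjusted p below 0.05 in edgeR, none of them called. Of the B cell list (7 of 7 genes measured, none at 0) 4 genes were, none called, with sums of 99.2, 75.4, 109.5 and 46.9 CPM in HFD and 49.5 to 79.3 CPM in CF, lowest in HFD replicate 4. The part of these cell types in the results was not tested. Results for the list of 10 are given with and without HFD replicate 1, and also without HFD replicate 4, which was singled out only after its values of the 10 genes were seen.

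The 6 subunits of the helicase ring had higher means in HFD than in CF, by 0.10 to 0.22 on the log2 scale, and none passed the test. Mcm6 (ENSMUSG00000026355, chr1:128331590-128359664, minus strand of GRCm38) was the most abundant of them. It was at 172, 198, 226 and 241 CPM in HFD replicates 1 to 4 and at 188, 194, 182 and 178 CPM in CF replicates 1 to 4. HFD replicate 1 lay below every CF library and the other 3 HFD libraries above every one, so that the diets overlapped. The means were 209 ± 30.4 CPM in HFD and 186 ± 7.21 CPM in CF (SD, n = 4), or 0.17 on the log2 scale (SE 0.12, 95% interval -0.11 to 0.46, edgeR adjusted p = 0.814), and 0.058 without HFD replicate 4.

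Mcm4 (ENSMUSG00000022673, chr16:15623897-15637400, minus strand), a subunit that receives much of the phosphorylation by the Cdc7 kinase, had its diets apart. Its levels were 106, 118, 109.6 and 138 CPM in HFD and 101, 100.3, 104 and 101 CPM in CF. Every HFD library lay above every CF library, as was the case for 2.58% of all tested genes. The lowest HFD library exceeded the highest CF library by little, while the 4 CF libraries were close together (117.9 ± 14.1 CPM in HFD, 101.4 ± 1.75 CPM in CF, SD, n = 4). The log2 fold change was 0.22 (SE 0.11, 95% interval -0.021 to 0.46, edgeR adjusted p = 0.655). Without HFD replicate 4 it was 0.095.

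Mcm5 (ENSMUSG00000005410, chr8:75109569-75128439, plus strand), which closes the ring at its gate with Mcm2, was also apart between the diets. It was at 114.3, 119, 114.5 and 140.1 CPM in HFD and at 106, 108, 113.4 and 109 CPM in CF. The lowest HFD library and the highest CF library differed by less than the SD of either diet (12.3 and 3.19 CPM, n = 4). This gave a log2 fold change of 0.16 (SE 0.10, 95% interval -0.066 to 0.39, edgeR adjusted p = 0.774), and 0.047 without HFD replicate 4.

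Mcm2 (ENSMUSG00000002870, chr6:88883474-88898780, minus strand), the other side of that gate, was at 95.1, 89.8, 98.6 and 114 CPM in HFD and at 91.7, 88.9, 89.2 and 87.0 CPM in CF. HFD replicate 2 lay within the CF range, and the other 3 lay above it. The log2 fold change was 0.15 (SE 0.098, 95% interval -0.069 to 0.38, edgeR adjusted p = 0.782), and 0.043 without HFD replicate 4.

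Mcm3 (ENSMUSG00000041859, chr1:20802968-20820312, minus strand) was at 99.4, 121, 120.3 and 143 CPM in HFD and at 114, 119, 115 and 102 CPM in CF. Its lowest library of all 8 was HFD replicate 1 and its highest was HFD replicate 4. HFD differed from CF by a log2 fold change of 0.10 (SE 0.12, 95% interval -0.18 to 0.38, edgeR adjusted p = 0.910). It was 0.19 without HFD replicate 1 and 0.060 without CF replicate 4, and it turned to -0.026 without HFD replicate 4.

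Mcm7 (ENSMUSG00000029730, chr5:138164583-138172422, minus strand) had HFD replicate 1 as the lowest and HFD replicate 4 as the highest of HFD too, with 114, 126, 136 and 152 CPM, against 116, 129, 121 and 123 CPM in CF. HFD replicate 1 again lay below every CF library, and only HFD replicates 3 and 4 lay above them all. The log2 fold change was 0.11 (SE 0.11, 95% interval -0.14 to 0.36, edgeR adjusted p = 0.878), was 0.17 without HFD replicate 1 and turned to -0.0061 without HFD replicate 4. Mcm7 overlaps Ap4m1 by 421 nt and Cops6 by 64 nt, both on the opposite strand. The strand setting of the counting is not given in the sources used here, so its counts are uncertain to the extent of these overlaps.

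**Figure D1:**
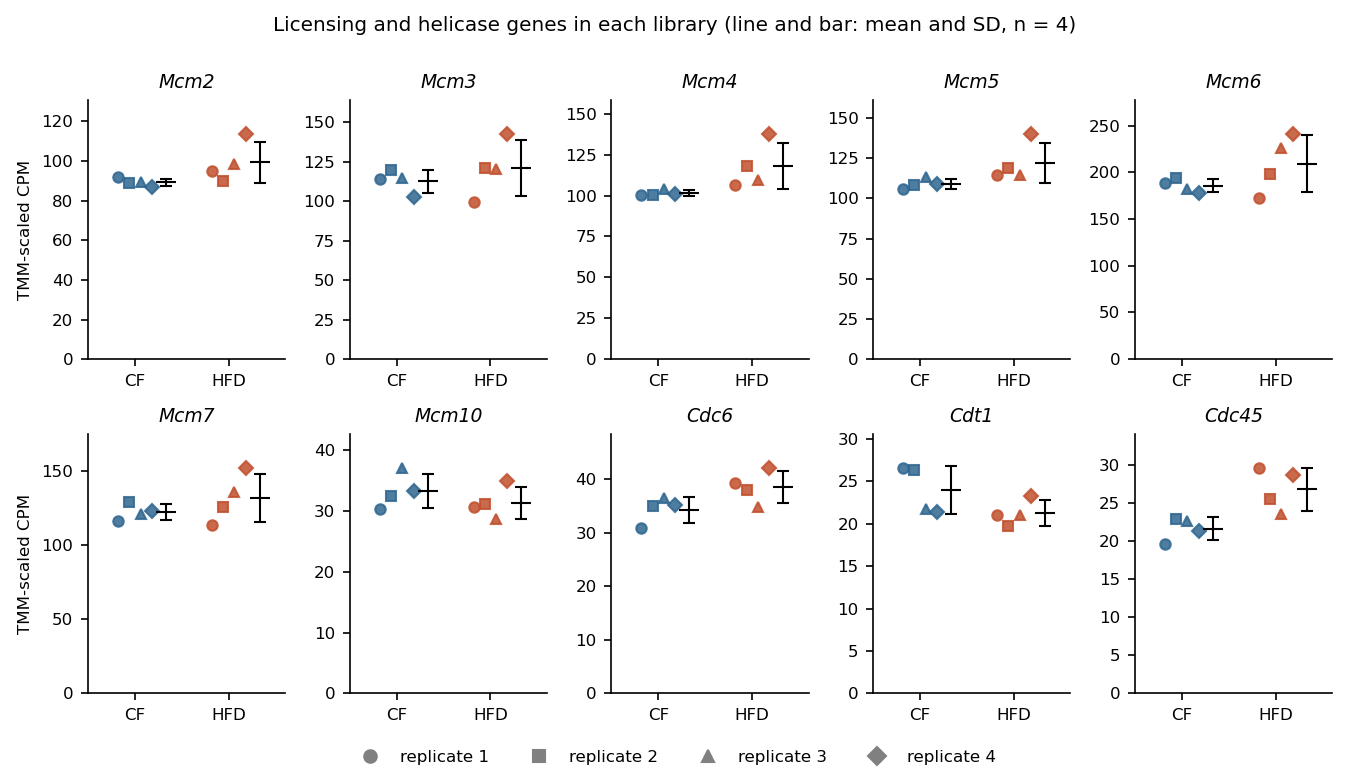
TMM-scaled CPM of the 10 genes in each library, with CF in blue and HFD in orange, a marker shape for each replicate number, and a line and bar for the mean and SD (n = 4). HFD replicate 4 (diamond) is the highest of the 8 libraries for all 6 of Mcm2 to Mcm7, and HFD and CF are apart for Mcm4, Mcm5 and Cdc45.

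The factors that load the ring had fewer counts and differed between themselves in direction. Cdc6 (ENSMUSG00000017499, chr11:98907801-98923940, plus strand), an ATPase that joins the origin recognition complex, was at 39.3, 37.9, 34.9 and 42.1 CPM in HFD and at 30.8, 34.95, 36.4 and 35.2 CPM in CF. HFD replicate 3 lay inside the CF range and the other 3 HFD libraries above it. Fitted over all genes, the log2 fold change was 0.17 (SE 0.099, 95% interval -0.058 to 0.39, edgeR adjusted p = 0.764), and 0.081 without HFD replicate 4.

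Cdt1 (ENSMUSG00000006585, chr8:122568015-122573554, plus strand), which brings the ring to the origin and is held in check by geminin, had the lowest count of the 10 genes in any library. It was at 21.05, 19.7, 21.01 and 23.3 CPM in HFD and at 26.6, 26.3, 21.7 and 21.4 CPM in CF. All 4 HFD libraries lay below the CF mean of 24.0 ± 2.84 CPM (SD, n = 4), and the diets overlapped because HFD replicate 4 was above CF replicates 3 and 4. The log2 fold change was -0.17 (SE 0.12, 95% interval -0.44 to 0.087, edgeR adjusted p = 0.796), and it was -0.26 without HFD replicate 4 and turned to 0.034 when counts were scaled by library size alone. The annotated gene Gm20388 spans Cdt1 on the same strand and is not analysed here.

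Of the factors that activate the ring, Cdc45 (ENSMUSG00000000028, chr16:18780447-18811987, minus strand) had the largest difference of the 10 genes in the edgeR fit. It was at 29.6, 25.5, 23.5 and 28.6 CPM in HFD and at 19.6, 22.8, 22.6 and 21.4 CPM in CF. Every HFD library lay above every CF library, and here HFD replicate 1, not HFD replicate 4, was the highest. The means were 26.8 ± 2.80 CPM in HFD and 21.6 ± 1.51 CPM in CF (SD, n = 4), a ratio of 1.24 (95% interval 1.04 to 1.48). This gave a log2 fold change of 0.31 (SE 0.11), with an unadjusted p of 0.021 and an adjusted p of 0.397 in edgeR, and it lay between 0.24 and 0.37 when each library was left out in turn. It was 0.17 without HFD replicates 1 and 4 together and 0.21 without replicate 1 of both diets. Cdc45 overlaps Ufd1 on the opposite strand by 209 nt, and Ufd1 differed by 0.044 on the log2 scale (edgeR adjusted p = 0.974).

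Mcm10 (ENSMUSG00000026669, chr2:4989714-5012791, minus strand), a scaffold that binds the activated helicase, was at 30.6, 31.1, 28.6 and 34.9 CPM in HFD and at 30.3, 32.4, 37.0 and 33.2 CPM in CF. No HFD library lay above the highest CF library, and the diets overlapped over most of their ranges. The log2 fold change was -0.085 (SE 0.10, 95% interval -0.32 to 0.15, edgeR adjusted p = 0.912), and it was -0.18 without HFD replicate 4, -0.045 without HFD replicate 3 and -0.029 without CF replicate 3, and turned to 0.10 with library size alone.

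As a list the 10 genes had a median above that of all genes. Their median log2 fold change was 0.16, beside 0.055 for all genes tested and 0.070 for the 11775 protein-coding ones. Protein-coding genes took 38.9% to 41.9% of the counts in the HFD libraries and 28.3%, 34.1%, 33.9% and 42.0% in CF replicates 1 to 4, and the part of this in the differences was not tested. With protein-coding genes alone scaled and tested, the median of the 10 was 0.12 beside 0.029 for all of these genes. A log2 fold change above 0 was found for 8 of the 10, for 59.7% of all tested genes and for 64.6% of the protein-coding ones, with Mcm10 and Cdt1 the exceptions. Scaling by library size alone moved the median of all genes to 0.25 and that of the 10 genes to 0.35, and all 10 were then above 0, as were 80.7% of all genes. Relative to the median of all genes, the median of the 10 was 0.10 under either scaling, Cdt1 was at -0.23 with TMM and -0.21 with library size alone, and Mcm10 was at -0.14 under both. A scaling factor moves all genes of a library together, so such relative values change little by construction. Every HFD library lay above every CF library for 3 of the 10 (Mcm4, Mcm5 and Cdc45). The share was 2.58% for all genes and 2.81% for protein-coding genes. For 9 of the 10 the 95% interval of the log2 fold change included 0. Over the 10 genes the intervals ran from a ratio of 0.739 at the lowest to 1.48 at the highest.

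**Figure D2:**
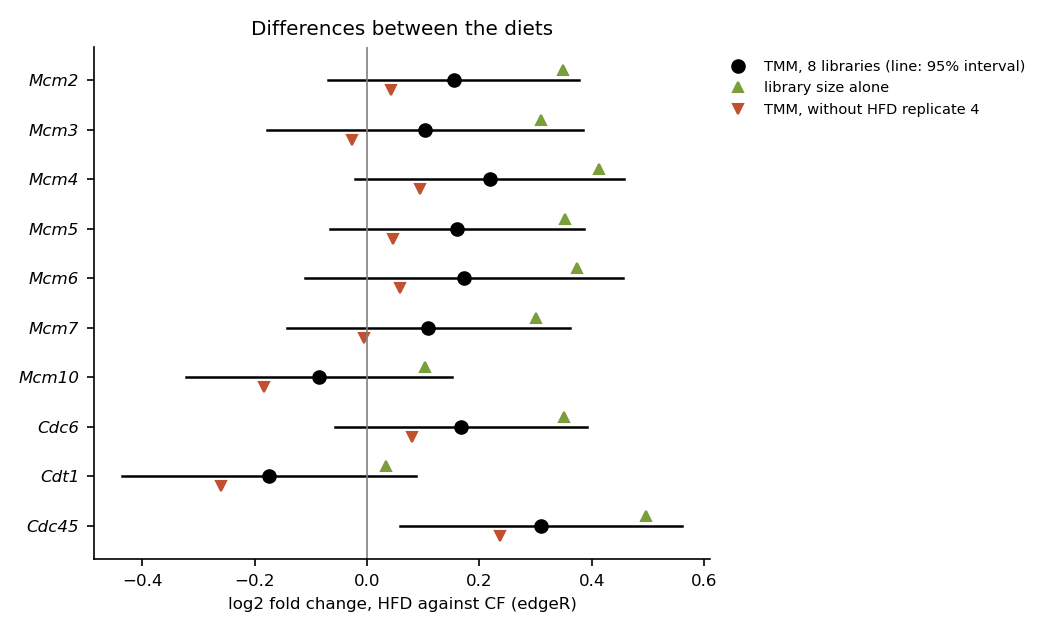
Log2 fold change of HFD against CF for each gene, with the 95% interval of the edgeR fit on 8 libraries (black), the value when counts were scaled by library size alone (green) and the value without HFD replicate 4 (orange). With library size alone Mcm10 and Cdt1 turn to above 0, and without HFD replicate 4 Mcm3 and Mcm7 turn to below 0. The interval of Cdc45, from 0.059 to 0.56, is the one that leaves out 0.

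For most of the 10 genes the HFD libraries differed more among themselves than the CF libraries did. The range over replicates on the log2 scale was larger in HFD than in CF for 8 of the 10 genes, among them all 6 ring subunits. The share of all tested genes with a larger range in HFD was not counted. For Mcm4 it was 0.38 in HFD and 0.053 in CF, and for Mcm2 it was 0.34 and 0.075. For Cdt1 and Mcm10 it was larger in CF. A wider spread was not particular to the 10 genes. Over all tested genes, log2 CPM of HFD replicate 1 correlated at 0.882 to 0.934 with the other HFD libraries. The other HFD libraries correlated at 0.955 to 0.969 with each other, and the CF libraries at 0.946 to 0.969.

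HFD replicates 1 and 4 lay at opposite ends of HFD for most of the ring subunits. The counts of Mcm2 to Mcm7 summed to 701, 772, 805 and 927 CPM in HFD replicates 1 to 4 and to 716, 740, 725 and 700.3 CPM in CF replicates 1 to 4. HFD replicate 4, with the lowest neutrophil sum, held the top value for 6 of 6 ring subunits and for 7 of the 10 genes, Cdc6 being the other. HFD replicate 1, with the highest neutrophil sum, was the lowest HFD library for 5 of the 6 ring subunits, and for Cdc45 it was the highest. Within CF, replicate 1 had a neutrophil sum of 1884 CPM and the others at least 5774 CPM, while the ring subunits summed to between 700.3 and 740 CPM in all 4. The part of neutrophil RNA in the differences between libraries was not tested.

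The values for the list moved when these libraries were left out. Without HFD replicate 4 the median of the 10 genes was 0.045, with 0.018 for all genes, and 6 of the 10 were above 0. Without HFD replicate 1 the median was 0.18, with 0.029 for all genes, and without both it was 0.084, with 0.014 for all genes. In both of these fits 8 of the 10 genes were above 0, and no gene of the 10 passed the test in any of the 3. The share of all genes above 0 was not counted in these fits. As a share of protein-coding counts the 10 genes took 0.1997%, 0.238%, 0.255% and 0.287% in HFD replicates 1 to 4 and 0.233%, 0.221%, 0.224% and 0.228% in CF replicates 1 to 4. The order within HFD was that of the summed CPM, but within CF it was not, and HFD replicate 1 lay below every CF library by share and inside the CF range by CPM (822 against 811 to 857 CPM for the 10 genes).

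**Figure D3:**
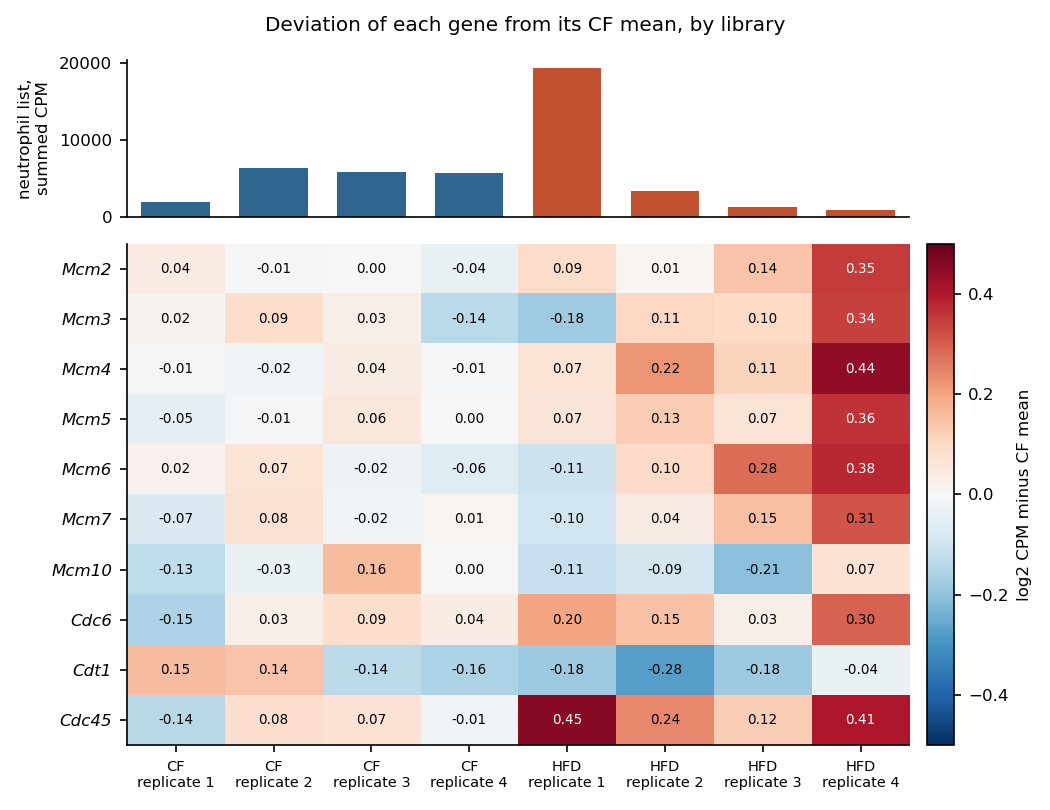
Below, the log2 CPM of each gene in each library minus its CF mean, as colour and number. Above, the summed CPM of 10 neutrophil genes in the same library on an axis from 0. The column of HFD replicate 4, with a median of 0.35, is above 0 for all genes but Cdt1, whereas that of HFD replicate 1 has a median of -0.017 and is highest for Cdc45.

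Levels of the genes were compared per kilobase of exon, since longer transcripts yield more counts. All 6 ring subunits were above the loaders and activators. In CF, Mcm6 had 39.8 ± 1.54 CPM per kb (SD, n = 4), above Mcm3 with 29.98 ± 1.93, Mcm4 with 28.3 ± 0.489, Mcm7 with 27.7 ± 1.18 and Mcm5 with 27.3 ± 0.7998 CPM per kb. Among these last 4, neighbours in the order did not differ beyond their spread. Mcm2 followed with 12.8 ± 0.274 CPM per kb, then Cdt1 with 7.64 ± 0.903, Cdc6 with 6.57 ± 0.466, Cdc45 with 6.16 ± 0.430 and Mcm10 with 4.32 ± 0.364 CPM per kb. The ranges of Cdt1 and Cdc6 overlapped, as did those of Cdc6 and Cdc45. In HFD the 3 had 6.77 ± 0.476, 7.37 ± 0.573 and 7.64 ± 0.799 CPM per kb, and with the longest transcript as the length Cdc45 was the highest of the 3 in both diets (10.1 in CF and 12.5 in HFD).

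Among protein-coding genes tested, the level per kb of Mcm6 was at percentile 97.6, those of Mcm3, Mcm4, Mcm5 and Mcm7 at 96.3 to 96.7, that of Mcm2 at 90.3 and that of Mcm10 at 62.7. The place of Mcm2 depended on the length used. The union of its annotated exons has 6956 nt and its longest transcript 3494 nt, and with the latter Mcm2 had 25.5 CPM per kb in CF, beside 28.3 for Mcm4 and 42.6 for Mcm6. Mcm7 was likewise higher on that length, at 41.4 CPM per kb in CF. The ratio of the highest to the lowest gene, Mcm6 to Mcm10, in means over the 8 libraries of both diets, was 10.1 with the union of exons and 6.84 with the longest transcript.

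**Figure D4:**
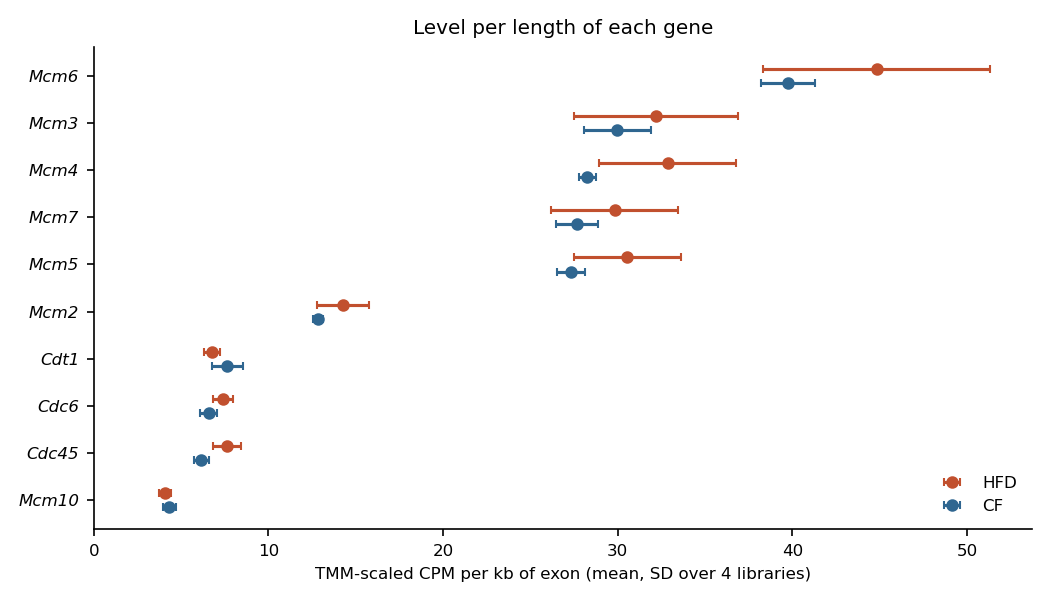
TMM-scaled CPM per kb of annotated exon for each gene, ordered by the CF mean, as mean and SD over 4 libraries of HFD (orange) and of CF (blue). Mcm6 is the highest, at 44.8 in HFD and 39.8 in CF, Mcm10 the lowest, at 4.07 and 4.32, and the SD bars of the ring subunits are wider in HFD than in CF.

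The make-up of the ring at the mRNA level varied little. Of the summed level per kb of Mcm2 to Mcm7, Mcm6 took 24.3 ± 1.39% in HFD and 24.0 ± 0.561% in CF, and Mcm2 took 7.76 ± 0.530% and 7.73 ± 0.213% (SD, n = 4). The other 4 subunits took between 15.5% and 18.7% in every library. For all 6 subunits the diets overlapped.

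Relative to the ring, the loaders and activators differed in direction. Cdt1 had 30.01, 25.5, 26.1 and 25.1 CPM per 1000 CPM of Mcm2 to Mcm7 in HFD and 37.1, 35.6, 29.98 and 30.5 in CF. HFD replicate 1 met CF replicate 3, and the other HFD libraries lay below all of CF. Mcm10 had 39.3 ± 3.50 in HFD and 46.1 ± 3.92 in CF, Cdc6 had 48.5 ± 5.56 and 47.7 ± 3.42, and Cdc45 had 33.8 ± 5.78 and 29.97 ± 1.81 (SD, n = 4), all with overlap of the diets. For Cdc45 the excess was in HFD replicate 1, with 42.1, and HFD replicate 2, with 33.0, since HFD replicates 3 and 4 had 29.2 and 30.8 and lay in the CF range of 27.3 to 31.2. The ratio of Cdt1 to its inhibitor Gmnn, each in CPM, was 1.47 ± 0.137 in HFD and 1.92 ± 0.337 in CF, from 1.35 to 1.67 and from 1.54 to 2.33.

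The levels of the ring subunits were positively correlated across libraries. Over the 8 libraries, Pearson's r of log2 CPM had a median of 0.78 over the 15 pairs of ring subunits (0.68 to 0.98), and of 0.75 (0.59 to 0.96) when each diet's mean was first removed. Against the ring subunits the median r was 0.54 for Cdc6 (0.33 to 0.84), 0.47 for Cdc45 (0.21 to 0.72), 0.19 for Mcm10 (-0.065 to 0.33) and 0.017 for Cdt1 (-0.26 to 0.21), so that the ranges of Cdc6 and Cdc45 overlapped that of the ring pairs. Cdc6 and Cdc45 had an r of 0.92 with each other. With each diet's mean removed the order changed, to 0.41 for Cdt1, 0.40 for Mcm10, 0.31 for Cdc6 and 0.10 for Cdc45. Over all 45 pairs the median was 0.49 (-0.49 to 0.98), and it was 0.89 with library size alone. These values are a description of 8 libraries of 2 diets, in which the genes share the depth and the scaling of each library. For all 6 ring subunits HFD replicate 4 was the highest of the 8.

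The protein-coding genes outside the list whose log2 CPM followed the mean of the 10 most closely over the 8 libraries were Ssb (r = 0.99), Rab10 (r = 0.98), Pcna (r = 0.97), Nup88 (r = 0.96) and Tmem123 (r = 0.96). Pcna encodes the sliding clamp that holds DNA polymerases on their template. It was at 108, 113, 115 and 149.7 CPM in HFD and at 105, 112, 103 and 94.8 CPM in CF, again with HFD replicate 4 the highest. The log2 fold changes of the 5 genes were 0.11 to 0.23, with edgeR adjusted p of 0.683 to 0.870.

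Genes that act before, beside and after the helicase were described by lists written from general knowledge. Together the lists held 91 genes besides the 10, and all 91 were tested. None passed the edgeR test, with 5 higher and 0 lower at an unadjusted p below 0.05 (3.22% and 5.34% of all genes). Of the 91, 74 had a log2 fold change above 0 (59.7% of all genes and 64.6% of protein-coding ones), with a median of 0.11, and without HFD replicate 4 the number was 56. Scaled by library size alone, 87 were above 0, as were 80.7% of all genes (median 0.30, beside 0.25 for all genes). The number was 60 when protein-coding genes alone were scaled and tested. The share of all genes above 0 was counted only with TMM over all genes and libraries and with library size alone. Numbers above 0 in other fits therefore have no such share beside them.

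Upstream of loading, 5 of 6 subunits of the origin recognition complex were above 0, with a median of 0.24. Orc6 was at 15.2 to 18.2 CPM in HFD and 11.9 to 16.9 CPM in CF, a log2 fold change of 0.33 (unadjusted p = 0.0431, edgeR adjusted p = 0.548). Orc2 had 0.29 (adjusted p = 0.599). The diets overlapped for both. Of 9 genes that control licensing 8 were above 0, with a median of 0.15. Among them Gmnn had 0.21 (adjusted p = 0.772) and Ddb1, of the ubiquitin ligase that destroys Cdt1 in S phase, 0.15 (adjusted p = 0.805). The 3 other MCM family genes had a median of 0.17, with 0.16 for Mcm8 and 0.17 for Mcm9 (adjusted p = 0.834 and 0.837).

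The GINS genes encode the partners of Cdc45 in the active helicase. All 4 were tested and had a median of -0.060, with 2 above 0, and the median turned to 0.14 with library size alone, beside 0.25 for all genes. Of the 4, Gins3 had -0.21 and Gins2 -0.15 (edgeR adjusted p = 0.848 and 0.919). Gins2 was at 11.1 CPM in HFD replicate 1 and at 21.7 CPM in HFD replicate 4, with CF at 17.5 to 20.5 CPM between them. Of 8 firing factors 6 were above 0, with a median of 0.038 that turned to -0.0042 with protein-coding genes alone. Donson, which helps to bring GINS to the ring, had 0.34 (unadjusted p = 0.0309, adjusted p = 0.475), and Dbf4, the activator of the Cdc7 kinase, 0.21 (adjusted p = 0.746).

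At the fork, the lists differed. The 6 fork protection genes had a median of 0.0031 with 3 above 0, which turned below 0 with RLE and upper quartile factors and with protein-coding genes alone (-0.0091, -0.0093 and -0.039). Of these 6, Chek1, the checkpoint kinase, had 0.41 (unadjusted p = 0.0233, edgeR adjusted p = 0.420) and Tipin 0.25 (adjusted p = 0.639). Of 23 polymerase and clamp genes 19 were above 0, with a median of 0.15. The lowest p of all 91 genes was that of Rfc4, a subunit of the clamp loader, at 13.5 to 15.8 CPM in HFD and 9.59 to 10.8 CPM in CF, with every HFD library above every CF library. Its log2 fold change was 0.47 (SE 0.11, unadjusted p = 0.00186, adjusted p = 0.124). Rfc3, another subunit of it, was at 11.7 to 13.8 CPM in HFD and 9.35 to 10.3 CPM in CF, likewise apart, with 0.38 (unadjusted p = 0.00709, adjusted p = 0.222).

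The last lists cover the supply of nucleotides, the E2F family and mitosis. All 6 nucleotide genes were above 0, with a median of 0.14, but 5 with protein-coding genes alone. Rrm1, the large subunit of ribonucleotide reductase, was at 148 to 164 CPM in HFD and 132 to 143 CPM in CF, apart between the diets, with 0.20 (edgeR adjusted p = 0.604), and Dut had 0.22 (adjusted p = 0.767). Of 14 E2F and RB family genes 10 were above 0, with a median of 0.077, among them E2f6 with 0.21 and E2f4 with 0.23 (adjusted p = 0.732 and 0.746). The number was 9 with RLE or upper quartile factors. With protein-coding genes alone it was 8, with a median of 0.036 beside 0.029 for all of these genes. All 12 mitosis genes were above 0, with a median of 0.10. The number was 11 with RLE or upper quartile factors and 9 with protein-coding genes alone (median 0.063). Cenpf and Cdk1 each had 0.20 (adjusted p = 0.754 and 0.772).

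**Figure D5:**
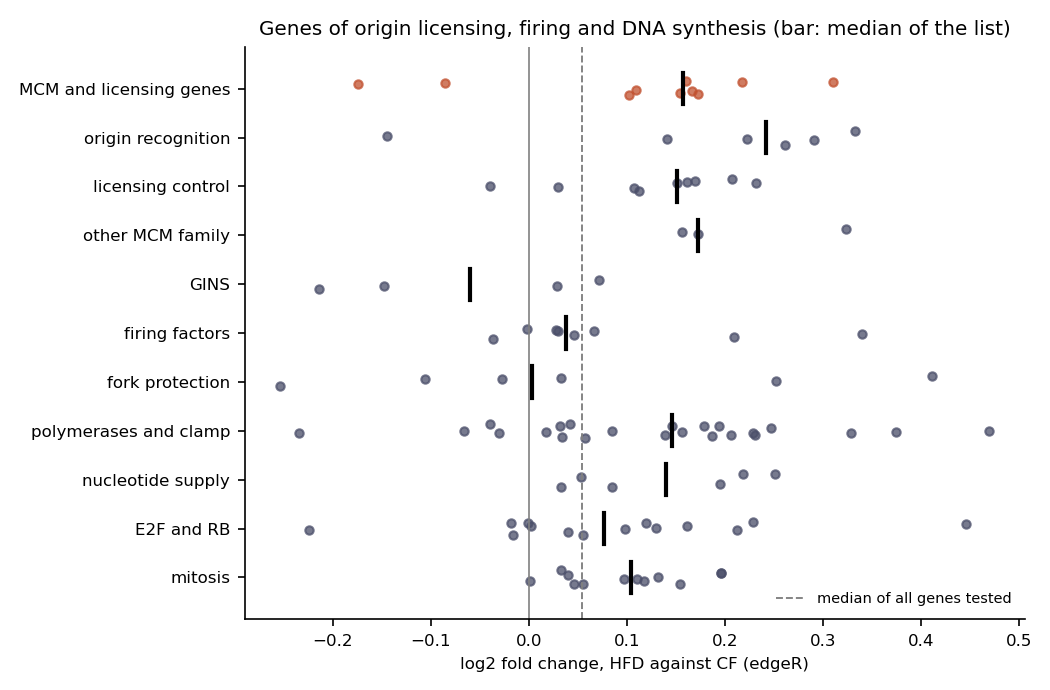
Log2 fold change of HFD against CF for each gene of the 10 lists and of the 10 licensing and helicase genes (orange), with a bar at the median of each list, a solid line at 0 and a dashed line at 0.055, the median of all genes tested. No gene shown passed the edgeR test, and the medians run from -0.060 for GINS (0.14 with library size alone) to 0.24 for origin recognition.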

How the data were processed

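RNA from sorted CDPs, 4 libraries per diet, was sequenced after amplification and depletion of rRNA (NuGen Ovation Solo). The deposited table holds raw counts per gene, for which the authors used HISAT2 to align reads, restricted the data to uniquely mapped pairs and ran StringTie with GENCODE genes. The submitters' processing notes add FastQC, cutadapt and GRCm38. The annotation release and the strand setting are not given in the sources used here. The lowest of the genes' highest counts was 29, so the table may have been filtered before deposit. All 8 count columns were matched to libraries by the sample number in their labels. Of 16119 Ensembl identifiers 16067 were found in GENCODE vM21, which gave names, coordinates and exon lengths, and 52 were not.

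The analysis used edgeR 4.0.16 in R 4.3.3. After filterByExpr, which left out 282 genes, and TMM scaling, a robust quasi-likelihood fit compared HFD with CF with the diet as the only term, and Benjamini-Hochberg adjustment covered all 15837 genes with a threshold of 0.05. The paper's own tool needs FPKM and was not used here. The log2 CPM had a prior count of 2. The TMM factors of HFD ranged from 1.01 to 1.13 and those of CF from 0.7996 to 1.18. Alternatives were RLE and upper quartile factors, library size alone, protein-coding genes alone, DESeq2 1.42.0, limma voom (limma 3.58.1), a block for the replicate number, single libraries left out, and, in place of filterByExpr, either no filter or at least 1 CPM in 4 libraries. Chosen after seeing the data were the fits without HFD and CF replicates 1 and without HFD replicates 1 and 4, and the other scalings of the pathway lists. Replicates of a diet differed beyond counting noise.

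The 10 genes and all lists were chosen with earlier results of these data known. Named besides the 10 genes are the 2 genes with the lowest p in each pathway list, the 5 most like the mean of the 10, annotated genes that overlap them, and marker genes. Promoters came from RefSeq on GRCm38.p6. Protein sequences were not used here. Matplotlib 3.10.9 under Python 3.11.15 drew the figures.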

Additional observations from a re-analysis of the deposited data

Results flagged for a closer look

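Mcm4 in CF replicate 3 had a log2 CPM of 6.70, while the other 3 CF libraries lay between 6.65 and 6.66, so that its gap to the nearest of them was 0.884 of the range of the diet, past Dixon's limit for 4 values. In all, 20 groups of 4 libraries were looked at in this way, of which chance marks about 1 in 20. The range concerned, 0.053 on the log2 scale, was the smallest of any of the 10 genes in either diet.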

How the results depend on the processing

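None of the 10 genes was called under any of the 19 alternatives, and the lowest adjusted p among these was 0.234 (DESeq2, Cdc45). Of the 190 values of single genes under alternatives 186 kept their direction. The exceptions were Mcm3 (-0.026) and Mcm7 (-0.0061) without HFD replicate 4, with values of up to 0.19 and 0.17 without HFD replicate 1, and Mcm10 (0.10) and Cdt1 (0.034) with library size alone. Library size alone gave 0.35 for the median of the 10 genes and 0.89 for the median correlation, and the longest transcript gave 6.84 for the ratio of levels. The count of 67 called genes was 108 with library size alone (10 of them higher), 569 in DESeq2 (71 higher) and 0 with protein-coding genes alone. It was 388 without HFD and CF replicates 1 (38 higher) and 8 without HFD replicates 1 and 4 (1 higher). With single libraries left out it ran from 0 to 200. It was 200 without HFD replicate 1 (34 higher), 154 without CF replicate 4 (0 higher) and at most 2 without any other. The cause of these shifts was not tested. With the replicate number as a block 0 genes and none of the 10 were called, and the median of the 10 was 0.15. Deviations from the diet means correlated at -0.44 to -0.078 between same-numbered libraries, and no HFD library correlated best with its own number. These values gave no sign of pairing by number. They cannot exclude it, since larger differences between libraries could hide a shared one. The lowest count of any of the 10 genes in a library was 626.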
